A study of Mus musculus with 6 samples.

Results

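C-type lectin receptors are proteins with a calcium-dependent type of sugar-binding fold, most of them carried on the surface of macrophages, dendritic cells and other leukocytes. They were taken here as all probe sets of the deposited table whose platform gene symbol starts with Clec and a digit or with Cd209, or is Mgl2, Mrc1 or Cd207, with no filter on signal. The rule found 47 probe sets for 36 genes among 45037 probe sets. A probe set is the group of short probes that reads 1 transcript on an Affymetrix array. The Clec4 group held 12 probe sets of 8 genes, the Cd209 group 8 probe sets of 7 genes, and the group around Clec7a (Clec2m, Clec12b, Clec1b, Clec1a and Clec7a, here the Clec7/12 group) 6 probe sets of 5 genes. The other 21 probe sets covered 16 genes. Not every gene with such a symbol encodes a lectin receptor: Clec16a encodes a regulator of autophagy, and Clec3b, Clec11a and Clec18a encode secreted proteins.

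The study measured RNA of whole lungs from adult BALB/c mice of 3 genotypes on 6 Affymetrix mouse genome arrays (the 430 2.0 design), 2 per genotype. The mice were wild type (WT), homozygous for a deletion of the interleukin-4 receptor (IL4R -/-, named IL4R KO), or had that deletion together with 1 copy of the SMP8-IL4R transgene (IL4R -/-, SMP8-IL4R +/-, named IL4R KO + SMP8-IL4R), whose promoter the study describes as specific to smooth muscle. Each array held a pool of 4 mice, and all mice, controls included, received 2 to 3 µg of interleukin-13 (IL-13) into the trachea daily for 7 days, with lungs taken 24 h after the last dose. Every comparison is thus between lungs given the cytokine, and no untreated group was analysed here.

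IL-4 and IL-13 signal through receptor complexes that contain the IL-4 receptor α chain, which activate the transcription factor STAT6. Macrophages and dendritic cells exposed to these cytokines are known for raising several C-type lectins, of which the mannose receptor and the galactose-type lectins are textbook markers of alternative activation. The receptors differ in what they do after binding. Dectin-1, dectin-2 and Mincle drive activation through the kinase Syk, others such as DCIR carry an inhibitory motif, and the mannose receptor mainly takes up its ligands.

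STAT6 is the factor that the deleted receptor activates. Promoter sequences are therefore shown for 4 of the 8 genes whose RNA was higher in WT than in IL4R KO lungs. They are the 250 bases upstream of the RefSeq transcript start on mouse GRCm38.p6, read 5′ to 3′ on the gene's strand. Capitals mark the letters TTCNNNGAA or TTCNNNNGAA, the spacings that STAT proteins are known to bind. Each of these motifs is its own reverse complement, so 1 search covered both strands. Cd209e lies at chr8:3854287-3854536 on the minus strand, with the match 79 to 70 bases upstream of the start. Clec7a lies at chr6:129472780-129473029 on the minus strand, with the match 131 to 122 bases upstream, and belongs to the downstream of its 2 annotated starts. Clec4a2 lies at chr6:123122440-123122689 on the plus strand, with the match 42 to 34 bases upstream. Mgl2 lies at chr11:70130107-70130356 on the plus strand and held no match in this window. The remaining genes higher in WT, Clec4a3, Clec4b1, Cd209d and Mrc1, held no match either and are not shown. The sequences shown thus do not give the share of genes with a match.
Cd209e: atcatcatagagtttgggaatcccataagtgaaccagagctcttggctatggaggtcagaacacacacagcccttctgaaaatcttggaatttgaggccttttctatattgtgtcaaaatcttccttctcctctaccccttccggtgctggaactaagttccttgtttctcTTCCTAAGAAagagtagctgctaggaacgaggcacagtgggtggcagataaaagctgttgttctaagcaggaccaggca
Clec7a: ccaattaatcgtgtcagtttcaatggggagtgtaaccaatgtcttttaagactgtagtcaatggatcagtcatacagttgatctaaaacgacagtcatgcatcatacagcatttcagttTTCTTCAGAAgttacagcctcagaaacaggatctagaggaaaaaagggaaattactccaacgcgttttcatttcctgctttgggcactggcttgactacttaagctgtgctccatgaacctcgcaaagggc
Clec4a2: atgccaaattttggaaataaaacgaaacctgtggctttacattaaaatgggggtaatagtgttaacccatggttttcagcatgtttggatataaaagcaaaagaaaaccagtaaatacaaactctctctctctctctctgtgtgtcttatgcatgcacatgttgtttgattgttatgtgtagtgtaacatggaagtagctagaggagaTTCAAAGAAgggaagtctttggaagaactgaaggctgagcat
Mgl2: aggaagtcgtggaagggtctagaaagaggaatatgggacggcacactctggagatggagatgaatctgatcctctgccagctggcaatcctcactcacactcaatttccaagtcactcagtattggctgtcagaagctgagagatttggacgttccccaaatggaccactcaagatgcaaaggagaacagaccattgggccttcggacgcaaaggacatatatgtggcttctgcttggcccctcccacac

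Either motif occurred in 12.4% of the 32851 RefSeq promoter windows of the same length, TTCNNNGAA in 7.02% and TTCNNNNGAA in 5.85%. Among the 32 member genes with a window, 4 held a match (12.5%), a share near that of all windows. The matches were in 3 of the 9 member genes that passed a test of expression (Cd209e, Clec7a and Clec4a2) and in 1 of the 23 others (Clec5a). A match is a description of the letters and was not tested for binding.

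The deposited values were log2 signals from RMA, with array medians from 7.08 to 7.11. Over all values the lower quartile was 5.30, the median 7.10 and the upper quartile 8.98, which serve here as the scale for a dim or bright probe set. The lung surfactant genes Sftpa1 and Sftpd lay above 13.9 on every array. IL4R KO pool 1 and WT pool 2 held the liver gene Alb at 11.8 to 12.3, against 5.68 to 5.93 on the other arrays. IL4R KO pool 2 stood apart in Y-linked genes, with Eif2s3y at 4.27 against at least 8.49 elsewhere. Il4ra did not check the genotype labels, since its probe sets were not placed relative to the deleted segment. Its brightest probe set read 9.64 and 9.81 in the WT pools, 9.35 and 9.55 in the IL4R KO pools, and 9.98 and 9.84 in the transgenic pools, and none of its 3 probe sets was called in any comparison.

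In WT lungs 8 C-type lectin probe sets, each of a different gene, were higher than in IL4R KO lungs, and 0 were lower. The 8 were Cd209e, Mgl2, Clec4a3, Clec4a2, Clec4b1, Clec7a, Cd209d and Mrc1, with WT signals 1.61 to 6.07 times those of IL4R KO. Over all probe sets, 1.58% were called in this comparison, 0.999% higher and 0.577% lower. At an unadjusted p under 0.05, 12 of the 47 members were higher and 2 lower, beside 3680 higher and 3548 lower of all 45037 probe sets. The test was limma's moderated test fitted to all 45037 probe sets, with calls at a Benjamini-Hochberg adjusted p under 0.05. The p-values rest on the spread between the 2 pools of a genotype, combined over all genotypes, including the one not compared. The moderated test also draws on the spread of all 45037 probe sets. Without the 2 arrays with liver transcripts 6 members were called, all of them among the 8, and Clec7a (1.19) and Cd209d (0.56) were not. With liver signal as a covariate the same 8 were called. With Y-linked signal as a covariate 11 were called, the 8 included. The Y-linked covariate set apart mainly IL4R KO pool 2, whose mean Y-linked signal was 3.72 against at least 7.50 on the other arrays. It thus acted in part like leaving out that pool, but Clec4d and Clec12b passed with the covariate alone. The median difference was 0.01 over the members and 0.00 over all probe sets.

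The IL4R KO + SMP8-IL4R lungs did not share these higher signals. Against WT, 10 member probe sets of 9 genes were lower and 0 higher, beside 1.04% called over all probe sets, 0.770% lower and 0.273% higher. At an unadjusted p under 0.05, 14 of the 47 members were lower and 4 higher, beside 3548 lower and 3362 higher of all 45037 probe sets. Without the 2 arrays with liver transcripts 6 were lower, and Cd209a (-0.77), Clec7a (-1.01) and both Clec4a2 probe sets (-1.25 and -0.67) were not called. The 9 genes were the 8 that were higher in WT than in IL4R KO and Cd209a. With liver signal as a covariate 7 member probe sets of 6 genes were lower, beside 264 lower and 91 higher over all probe sets. In that run Clec7a (-1.01), Cd209a (-0.88) and Cd209d (-0.88) were not called. Against IL4R KO, 0 of 47 member probe sets were called in either direction by limma, where 0.0155% of all probe sets were called, all of them higher. At an unadjusted p under 0.05, 4 members were higher and 5 lower in that comparison, beside 2689 higher and 2419 lower of all probe sets. Both of the comparisons with WT use the same WT pools, and both of the comparisons with IL4R KO use the same IL4R KO pools.

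**Figure D1:**
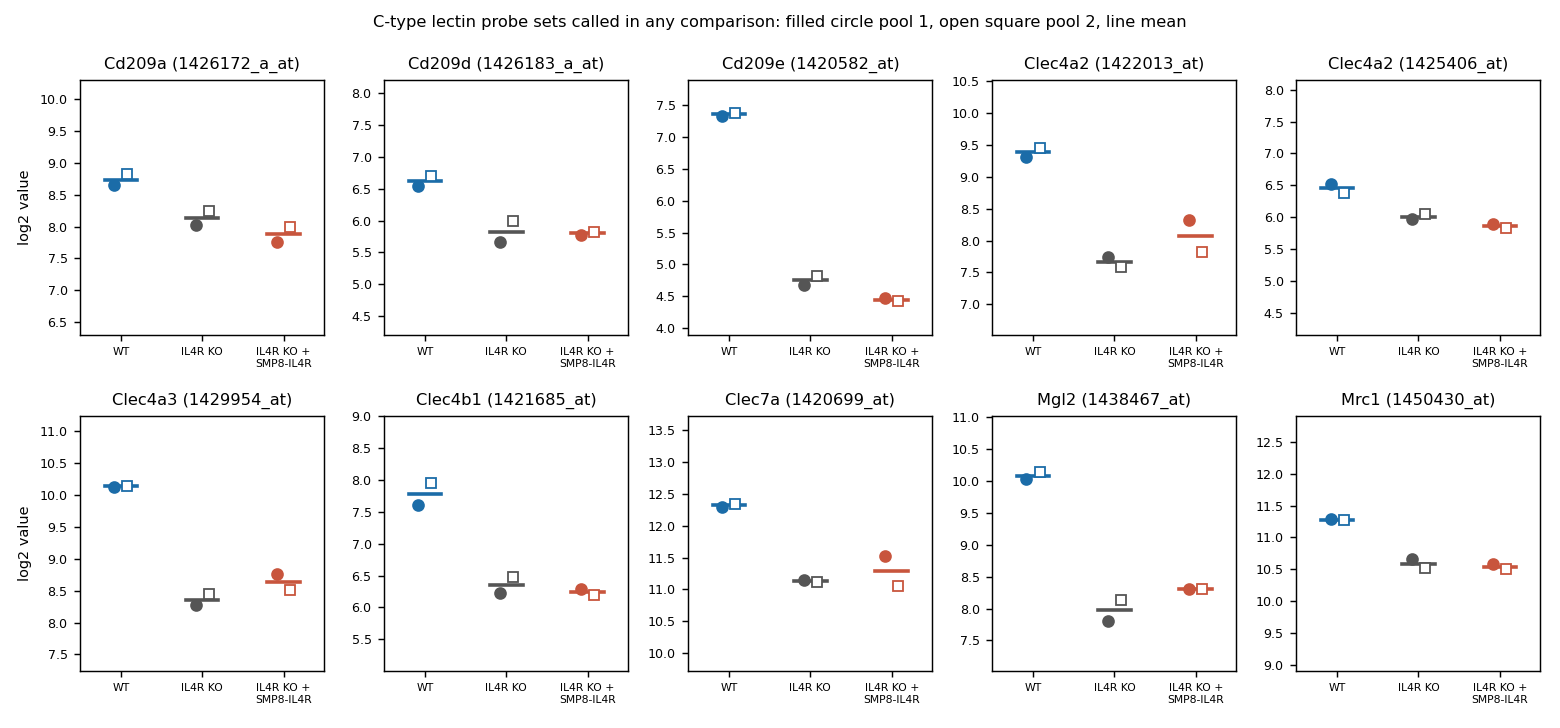
Log2 value of each C-type lectin probe set called in any comparison, by genotype (x axis), with pool 1 as a filled circle, pool 2 as an open square and the group mean as a line. In each panel of the 8 genes called between WT and IL4R KO, both WT pools lie above all 4 pools of the other genotypes.

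Of the 8 measured Clec4 genes, 6 lie in a block on mouse chromosome 6, and Clec4f and Clec4g lie elsewhere. Within the block Clec4a3, Clec4b1 and Clec4a2 were higher in WT, while Clec4n, Clec4d and Clec4e, which follow them in chromosome order, were not called. For the whole group of 8 genes, 3 of 12 probe sets were called higher in WT than in IL4R KO, with a median difference of 0.28. Against WT, 4 of 12 were lower in the transgenic lungs, with a median of -0.21.

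Clec4a3, a close relative of the dendritic cell immunoreceptor gene Clec4a2, was a bright probe set in WT. It read 10.12 and 10.15 in the WT pools, 8.27 and 8.45 in the IL4R KO pools, and 8.76 and 8.51 in the transgenic pools. Both WT pools were above all others, and the transgenic pools lay slightly above the IL4R KO pools. The WT minus IL4R KO difference was 1.77 on the log2 scale (SE 0.11, adjusted p = 0.00112), a 3.42-fold higher signal. The transgenic lungs differed from IL4R KO by 0.27 (95% interval 0.01 to 0.53, adjusted p = 0.427) and from WT by -1.50 (adjusted p = 0.00218). Both calls stood under every alternative run.

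Clec4a2 encodes DCIR, a receptor with an inhibitory motif found on dendritic cells, macrophages and B cells. Its brighter probe set read 9.32 and 9.45 in the WT pools, 7.74 and 7.59 in the IL4R KO pools, and 8.32 and 7.82 in the transgenic pools. The WT pools were the highest, and transgenic pool 1 stood between WT and the rest. WT exceeded IL4R KO by 1.72 (SE 0.16, adjusted p = 0.00541), a 3.29-fold difference. The transgenic lungs differed from IL4R KO by 0.40 (95% interval 0.02 to 0.79, adjusted p = 0.425) and from WT by -1.32 (adjusted p = 0.0188). The call between WT and IL4R KO was lost without WT pool 1 (1.79) and without WT pool 2 (1.65). The call between the transgenic lungs and WT was lost without WT pool 1 (-1.38), WT pool 2 (-1.25) or transgenic pool 2 (-1.07).

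The dimmer Clec4a2 probe set disagreed in the first of these calls. It read 6.53 and 6.38 in the WT pools, 5.97 and 6.05 in those of IL4R KO, and 5.90 and 5.83 in the transgenic pools. The direction was that of the brighter probe set, with smaller differences. WT minus IL4R KO was 0.45 (adjusted p = 0.0693), and the transgenic lungs were lower than WT by -0.59 (adjusted p = 0.0357). That call was lost without WT pool 1 (-0.52), WT pool 2 (-0.67), transgenic pool 1 (-0.63) or transgenic pool 2 (-0.56).

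Clec4b1 encodes DCAR, an activating relative of DCIR that signals with the Fc receptor γ chain. It read 7.61 and 7.95 in the WT pools, 6.22 and 6.48 in those of IL4R KO, and 6.28 and 6.19 in the transgenic pools. The WT pools did not overlap with the other 4, which lay together. The WT signal was above that of IL4R KO by 1.42 (SE 0.14, adjusted p = 0.00593), or 2.68-fold, and this call stood under every alternative that tested it. The transgenic lungs differed from IL4R KO by -0.12 (95% interval -0.44 to 0.21). They were lower than WT by -1.54 (adjusted p = 0.00524), a call lost without transgenic pool 1 (-1.59) or transgenic pool 2 (-1.49). A further probe set is annotated to a pair of Clec4 genes and is counted under neither. It showed the same order, with 9.60 and 9.66 in the WT pools, 7.81 and 7.79 in those of IL4R KO, and 8.14 and 7.79 in the transgenic pools.

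Clec4n, Clec4d and Clec4e encode dectin-2, MCL and Mincle, receptors for fungal and mycobacterial glycans and lipids that activate Syk. The brighter Clec4n probe set read 10.02 and 10.17 in the WT pools, 10.00 and 9.58 in those of IL4R KO, and 10.36 and 9.59 in the transgenic pools. The groups overlapped, and WT minus IL4R KO was 0.30 (95% interval -0.30 to 0.91, adjusted p = 0.602). Its second probe set gave 0.67 (95% interval 0.03 to 1.32, adjusted p = 0.297).

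Clec4d and Clec4e varied widely between pools of 1 genotype. Clec4d read 7.11 and 7.15 in the WT pools, 9.24 and 7.60 in those of IL4R KO, and 8.82 and 7.57 in the transgenic pools. Clec4e read 5.84 and 5.75 in the WT pools, 8.34 and 6.51 in those of IL4R KO, and 8.46 and 6.32 in the transgenic pools. In both genes pool 1 of IL4R KO and pool 1 of the transgenic lungs were high, and both WT pools lay lowest. The WT minus IL4R KO difference was -1.29 for Clec4d (SE 0.57, 95% interval -2.64 to 0.06, adjusted p = 0.329) and -1.63 for Clec4e (SE 0.77, 95% interval -3.47 to 0.21, adjusted p = 0.364), neither called. With Y-linked signal as a covariate the Clec4d difference was -2.06 (adjusted p = 0.0398), which passed. That covariate set apart mainly IL4R KO pool 2, so this value rests largely on the high IL4R KO pool 1. The second Clec4e probe set had the same 2 high pools, at 6.59 and 6.87 against 4.91 to 5.25 elsewhere.

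Several neutrophil genes were high in the same pools. Of 12 neutrophil genes listed, 11 were measured. In IL4R KO pool 1 lay above pool 2 in 11 of 11, by more than 1 in 3 of them, and in the transgenic lungs in 10 of 11, by more than 1 in 8. Their mean log2 signal was 7.89 and 8.16 in the WT pools, 9.05 and 8.27 in those of IL4R KO, and 9.74 and 8.01 in the transgenic pools. S100a8, a calprotectin subunit abundant in neutrophils, read 10.25 and 10.88, 12.56 and 11.08, and 13.59 and 10.56 in the same order. Mmp8, the neutrophil collagenase, read 6.31 and 6.66, 9.16 and 6.90, and 9.44 and 6.54. Their part in the Clec4d and Clec4e values was not tested. Mpo, the myeloperoxidase gene, lay between 5.27 and 5.52 on all arrays. Ltf (lactoferrin) read 10.93 and 10.67 in WT, 11.72 in IL4R KO pool 2 and more in its pool 1, and 11.41 and 11.43 in the transgenic pools. Ltf was lower in WT than in IL4R KO (-1.07, adjusted p = 0.0138), a call lost without either WT pool (-1.20 and -0.94) or either transgenic pool (-1.07 in each case). No other of the 11 was called in any comparison. Over all probe sets 1.58% were called between WT and IL4R KO.

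Clec4d and both Clec4e probe sets were the members whose pools differed by more than 1. There were 3 such probe sets in IL4R KO, the same 3 in the transgenic lungs, and 0 in WT. In whole lung, fewer cells of a type and less RNA per cell cannot be told apart, and this holds for every value given here.

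**Figure D2:**
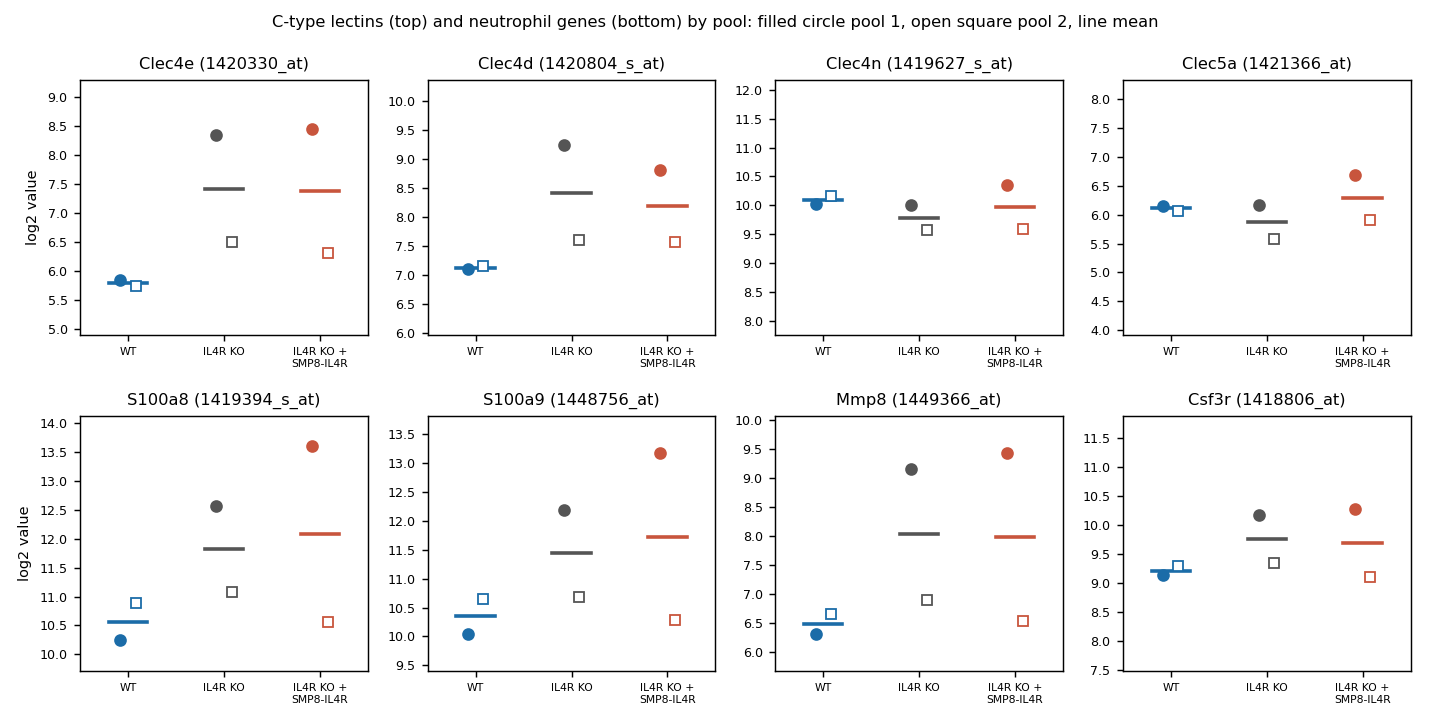
Log2 values of C-type lectins of the Clec4 block and Clec5a (top row) and of neutrophil genes (bottom row) by genotype, with pool 1 as a filled circle, pool 2 as an open square and the mean as a line. For Clec4d, Clec4e and the neutrophil genes drawn, pool 1 of IL4R KO and of the transgenic lungs lies well above its pool 2, while the WT pools lie closer together.

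Clec4f and Clec4g are best known from liver, where Clec4f marks Kupffer cells and Clec4g (LSECtin) sinusoidal endothelium. Clec4f read 6.39 and 6.33 in the WT pools, 6.20 and 6.01 in those of IL4R KO, and 6.14 and 5.98 in the transgenic pools, and WT minus IL4R KO was 0.26 (adjusted p = 0.273). Clec4g read 6.07 and 6.37, 6.23 and 6.18, and 6.42 and 6.54 in the same order. Both genes lay below the median of all values on every array. On the 2 arrays with liver transcripts Clec4f lay at 6.20 and 6.33, within the 5.98 to 6.39 of the other arrays. The brighter Clec4g probe set lay at 6.23 and 6.37 there, within 6.07 to 6.54. The dimmer one lay at 5.98 and 6.17 there against 5.78 to 6.00 elsewhere, so that WT pool 2 was its highest array.

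Around Clec7a on chromosome 6, 1 of 6 probe sets was called, and it was Clec7a itself. The gene encodes dectin-1, the receptor for fungal β-glucan on macrophages, dendritic cells and neutrophils. It was the brightest of the called members, at 12.30 and 12.34 in the WT pools, 11.15 and 11.11 in those of IL4R KO, and 11.53 and 11.05 in the transgenic pools. The WT pools stood above the rest, and transgenic pool 1 was the highest of the other 4. WT exceeded IL4R KO by 1.19 (SE 0.15, adjusted p = 0.0175), or 2.28-fold. The transgenic lungs differed from IL4R KO by 0.16 (95% interval -0.19 to 0.52, adjusted p = 0.697) and from WT by -1.02 (adjusted p = 0.0357). The call between WT and IL4R KO was lost without WT pool 1 (1.21) or WT pool 2 (1.17). The call between the transgenic lungs and WT was lost without WT pool 1 (-1.04), WT pool 2 (-1.01) or transgenic pool 2 (-0.79). It was also lost with the liver covariate (-1.01).

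The measured neighbours of Clec7a were not called in any comparison. The median WT minus IL4R KO difference of the 6 probe sets, Clec7a included, was -0.14, and the median of the transgenic lungs minus WT was 0.49. Clec1a, expressed by endothelium and dendritic cells, read 10.36 and 10.53 in the WT pools, 10.25 and 10.77 in those of IL4R KO, and 10.95 and 10.78 in the transgenic pools. Both transgenic pools lay above both WT pools (0.42, adjusted p = 0.313), as they did in its second probe set (0.61, adjusted p = 0.218), and the mean of 12 endothelial genes was at least 11.8 on all arrays. Of those 12 genes Vwf alone was called, higher in WT than in IL4R KO (0.70) and lower in the transgenic lungs than in WT (-0.63). Over all probe sets 1.58% and 1.04% were called in these 2 comparisons. Both Vwf calls were lost when any 1 of the WT or transgenic pools was left out (0.68 to 0.73 and -0.68 to -0.58). Clec1b encodes CLEC-2, the platelet receptor for podoplanin. It read 8.63 and 9.05 in the WT pools, 9.23 and 8.89 in those of IL4R KO, and 9.64 and 9.14 in the transgenic pools (transgenic minus WT 0.55, adjusted p = 0.294).

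The mean of 8 platelet genes followed a like order, at 7.93 and 8.29 in the WT pools, 8.42 and 8.37 in those of IL4R KO, and 8.75 and 8.44 in the transgenic pools. None of the 8 was called. Between the transgenic lungs and WT 6 had an unadjusted p under 0.05, beside 6910 of all 45037 probe sets. The part of these platelet genes in the Clec1b values was not tested. Clec12b, an inhibitory receptor, read 6.84 and 6.50 in the WT pools, 7.53 and 6.78 in those of IL4R KO, and 7.33 and 7.13 in the transgenic pools. WT minus IL4R KO was -0.48 (95% interval -1.06 to 0.09, adjusted p = 0.388), and -0.81 with the Y-linked covariate, which passed (adjusted p = 0.0466). That covariate set apart mainly IL4R KO pool 2, so the value of -0.81 rests largely on IL4R KO pool 1. Clec2m lay at 3.2 to 3.3 on every array, near the lowest values of the table.

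The Cd209 genes encode the mouse relatives of human DC-SIGN, receptors for mannose and fucose that are carried by dendritic cells and macrophages. Of 8 probe sets, 2 were called higher in WT than in IL4R KO, Cd209e and Cd209d, and 3 were lower in the transgenic lungs than in WT, the same pair and Cd209a. The median difference was 0.03 for WT minus IL4R KO and -0.43 for the transgenic lungs minus WT. Along chromosome 8 the family runs in the order Cd209a, Cd209e, Cd209d, with 2 other genes between the first pair. Cd209b, Cd209c, Cd209f and Cd209g follow and were not called.

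Cd209e showed the widest difference of all members. It read 7.33 and 7.38 in the WT pools, 4.68 and 4.82 in those of IL4R KO, and 4.47 and 4.42 in the transgenic pools. Only the WT pools lay above the lower quartile of all values. The WT signal was above that of IL4R KO by 2.60 (SE 0.08, 95% interval 2.41 to 2.80, adjusted p = 5.10e-05), or 6.07-fold, a ratio that is uncertain because RMA values this low approach a floor. The transgenic lungs were lower than WT by -2.91 (adjusted p = 2.64e-05), or 7.52-fold. They lay 0.31 below IL4R KO (difference -0.31, 95% interval -0.50 to -0.12, adjusted p = 0.332), which was not called. Both calls against WT stood under every alternative that tested them.

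Cd209d read 6.55 and 6.70 in the WT pools, 5.67 and 5.99 in those of IL4R KO, and 5.77 and 5.83 in the transgenic pools. The WT pools were the highest in a probe set that was below the median on every array. WT exceeded IL4R KO by 0.79 (SE 0.12, adjusted p = 0.0333), and the transgenic lungs were lower than WT by -0.82 (adjusted p = 0.0363). The call between WT and IL4R KO was lost without WT pool 1 (0.87), WT pool 2 (0.72) or either transgenic pool (0.79 in each case). The call between the transgenic lungs and WT was lost without WT pool 1 (-0.90), WT pool 2 (-0.75), transgenic pool 1 (-0.80) or transgenic pool 2 (-0.85). It was also lost with the liver covariate (-0.88).

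Cd209a, the gene usually named as mouse DC-SIGN and a marker of monocyte-derived dendritic cells, was the brightest of the family. It read 8.65 and 8.82 in the WT pools, 8.02 and 8.24 in those of IL4R KO, and 7.76 and 7.99 in the transgenic pools. The WT pools did not overlap with either group. The WT minus IL4R KO difference was 0.60 (SE 0.12, 95% interval 0.32 to 0.89), and its adjusted p of 0.0757 missed the threshold, which it passed without IL4R KO pool 2 (0.71). The same difference also passed with the filter above the median in all 6 arrays (adjusted p = 0.0497), with 1 probe set per gene (0.0499) and with a robust trend (0.0438). It passed with the Y-linked covariate too (0.0374, difference 0.71). That covariate set apart mainly IL4R KO pool 2, so this run is close to a repeat of leaving out that pool. The transgenic lungs were lower than WT by -0.86 (adjusted p = 0.0318). That call was lost without WT pool 1 (-0.94), WT pool 2 (-0.77), transgenic pool 1 (-0.75) or transgenic pool 2 (-0.97). It was also lost with the liver covariate (-0.88).

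Cd209b encodes SIGN-R1, known from macrophages of the splenic marginal zone. It read 6.95 and 7.03 in the WT pools, 6.94 and 6.99 in those of IL4R KO, and 6.44 and 6.80 in the transgenic pools. WT and IL4R KO lay together (difference 0.02, 95% interval -0.27 to 0.31), and the transgenic lungs lay below IL4R KO by -0.34 (95% interval -0.64 to -0.05, adjusted p = 0.386). WT minus IL4R KO was -0.18 for Cd209c (95% interval -0.45 to 0.09) and -0.11 for Cd209f (95% interval -0.36 to 0.13). For Cd209g it was -0.44 (95% interval -0.84 to -0.04, adjusted p = 0.269). All 8 probe sets of the family had transgenic means below the IL4R KO means, by -0.46 to -0.03 with a median of -0.28, but none was called.

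**Figure D3:**
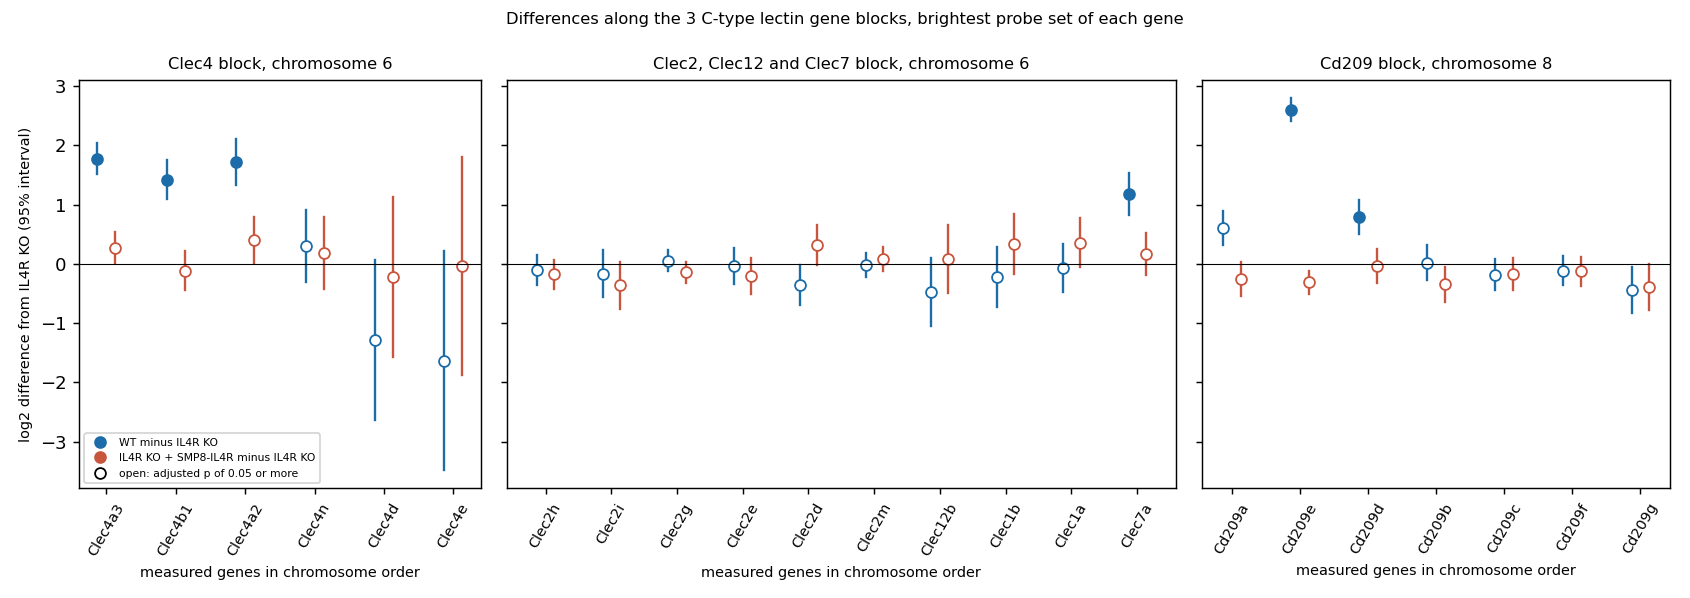
Log2 difference from IL4R KO, with its 95% interval, for the brightest probe set of each measured gene in chromosome order in the Clec4 block, the block from Clec2h to Clec7a and the Cd209 block. WT minus IL4R KO and IL4R KO + SMP8-IL4R minus IL4R KO are in separate colours, and open points had an adjusted p of 0.05 or more. Filled points appear for WT minus IL4R KO at Clec4a3, Clec4b1, Clec4a2, Clec7a, Cd209e and Cd209d, and none appears for the transgenic lungs.

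Mgl2 and Clec10a are neighbours on chromosome 11 and encode the mouse galactose-type lectins CD301b and CD301a. Mgl2 read 10.03 and 10.14 in the WT pools, 7.81 and 8.14 in those of IL4R KO, and 8.31 and 8.31 in the transgenic pools. Clec10a read 7.78 and 7.88, 7.73 and 7.56, and 7.77 and 7.81 in the same order. Mgl2 thus separated WT from both other genotypes, and Clec10a lay between 7.56 and 7.88 on all arrays. The WT signal was above that of IL4R KO by 2.11 for Mgl2 (SE 0.12, adjusted p = 0.000794) and by 0.18 for Clec10a (95% interval -0.03 to 0.40, adjusted p = 0.377). For Mgl2 the transgenic lungs differed from IL4R KO by 0.34 (95% interval 0.05 to 0.62, adjusted p = 0.384) and from WT by -1.77 (adjusted p = 0.00155). Both Mgl2 calls stood under every alternative run.

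Mrc1, the macrophage mannose receptor CD206, had the smallest of the called differences between WT and IL4R KO. It read 11.29 and 11.27 in the WT pools, 10.66 and 10.52 in those of IL4R KO, and 10.58 and 10.50 in the transgenic pools. WT exceeded IL4R KO by 0.69 (SE 0.08, adjusted p = 0.0155), or 1.61-fold, and the transgenic lungs were lower than WT by -0.74 (adjusted p = 0.0132). The transgenic lungs differed from IL4R KO by -0.05 (95% interval -0.25 to 0.15). Both calls were lost when any 1 of the WT or transgenic pools was left out, with differences of 0.68 to 0.70 and -0.78 to -0.70. Cd207, langerin of Langerhans cells and some lung dendritic cells, read 6.75 and 6.77 in the WT pools, 6.58 and 6.46 in those of IL4R KO, and 6.38 and 6.73 in the transgenic pools, with 0.24 for WT minus IL4R KO (95% interval -0.06 to 0.54, adjusted p = 0.408).

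The members outside the Clec4, Clec7/12 and Cd209 groups gave, besides Mgl2 and Mrc1, 19 uncalled probe sets of 14 genes, Cd207 and Clec10a included. Their differences ran from -0.36 to 0.24 for WT minus IL4R KO, -0.36 to 0.43 for the transgenic lungs minus IL4R KO, and -0.22 to 0.67 for the transgenic lungs minus WT. With Mrc1, the brightest members outside these groups were Clec14a, an endothelial protein, and Clec3b, which encodes the plasma protein tetranectin. Clec14a lay between 11.84 and 12.22 and Clec3b between 10.21 and 10.63 over the 6 arrays.

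Clec5a stood at the upper end of the ranges for WT minus IL4R KO and for the transgenic lungs minus IL4R KO. Clec2d stood at the lower end for WT minus IL4R KO and at the upper end for the transgenic lungs minus WT. Clec5a, a myeloid receptor that signals with the adaptor DAP12, read 6.15 and 6.07 in the WT pools, 6.16 and 5.57 in those of IL4R KO, and 6.68 and 5.90 in the transgenic pools. The WT minus IL4R KO difference was 0.24 (95% interval -0.41 to 0.90). Clec2d encodes a ligand of the inhibitory lymphocyte receptor encoded by Klrb1b and read 9.61 and 9.59 in the WT pools, 9.74 and 10.18 in those of IL4R KO, and 10.22 and 10.32 in the transgenic pools. The transgenic pools lay above the WT pools by 0.67 (adjusted p = 0.106). That difference passed the threshold without IL4R KO pool 1 or pool 2 (0.67 in each case), and WT minus IL4R KO (-0.36, adjusted p = 0.287) passed without IL4R KO pool 1 (-0.58). The other 8 Clec2 probe sets outside the Clec7/12 group, of 5 genes, lay between 3.00 and 6.99, with WT minus IL4R KO of -0.16 to 0.12.

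Set side by side, the transgenic differences from IL4R KO were small for the genes that were higher in WT. For the 8 called probe sets they ran from -0.31 to 0.40. The unadjusted interval lay above 0 for Clec4a3, Clec4a2 and Mgl2 and below 0 for Cd209e, and included 0 for the others. Over all 47 members the transgenic differences from IL4R KO ran from -0.46 to 0.43 with a median of -0.04, and the interval included 0 in 38. The lowest adjusted p among them was 0.332, and the intervals of single genes, such as -1.57 to 1.13 for Clec4d, leave room for sizeable differences where the pools disagreed. By group the medians were 0.07 for Clec4, 0.25 for Clec7/12, -0.28 for Cd209 and -0.04 for the rest, with -0.01 over all probe sets.

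**Figure D4:**
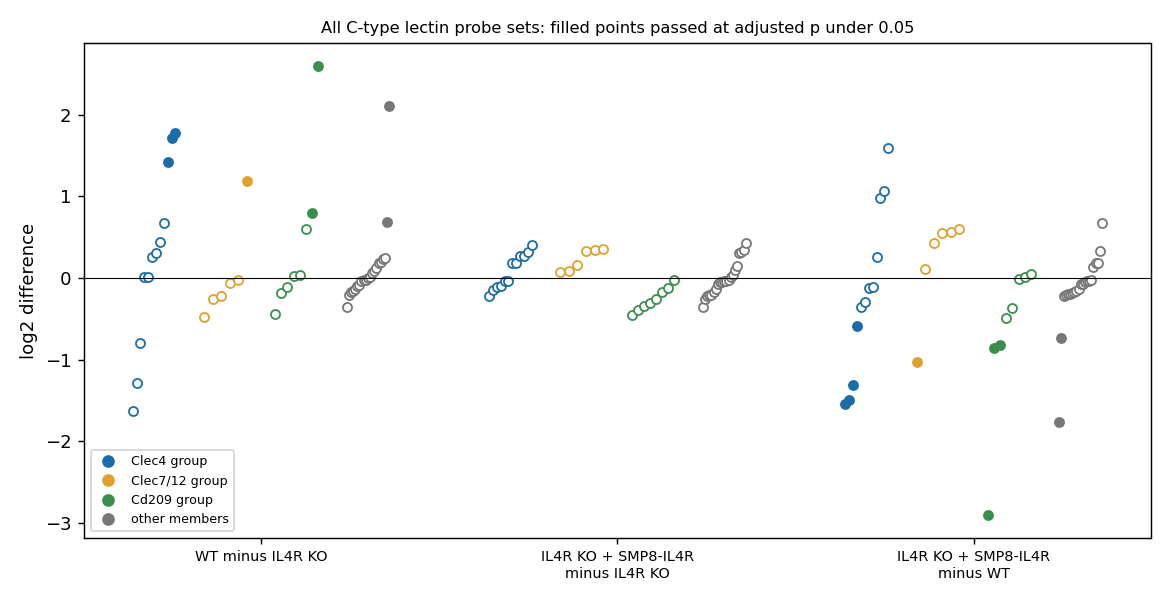
Log2 difference of each of the 47 C-type lectin probe sets in the 3 comparisons (x axis), coloured by gene group, with filled points for adjusted p under 0.05. The filled points are 8 above 0 for WT minus IL4R KO and 10 below 0 for IL4R KO + SMP8-IL4R minus WT, and none for the transgenic lungs minus IL4R KO, where all points lie within 0.46 of 0.

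Genes of the signalling proteins that work behind these receptors were also listed. Of 20 listed adaptors and kinases, 17 were measured and 0 were called between WT and IL4R KO by limma. Over all probe sets 1.58% were called, and 0 among 17 is near that share. At an unadjusted p under 0.05 were 6 of the 17, beside 7228 of all 45037 probe sets. The lowest p-values were those of Prkcd (0.42, adjusted p = 0.0657), the kinase PKCδ that acts downstream of Syk, and Malt1 (0.57, adjusted p = 0.0876), the paracaspase of the CARD9 complex. The Prkcd difference passed with the filters above the median in at least 2 arrays (adjusted p = 0.0413) and in all 6 (0.0368). It also passed with 1 probe set per gene (0.0298) and with a robust trend (0.022). Syk itself differed by -0.12, and the adaptors encoded by Fcer1g and Tyrobp by 0.15 and 0.02. Against IL4R KO 0 were called in the transgenic lungs, beside 0.0155% over all probe sets. At an unadjusted p under 0.05 there were 0 as well, beside 5108 of all 45037. Against WT, Prkcd was lower (-0.52, adjusted p = 0.0398), a call lost when any 1 of the WT or transgenic pools was left out (-0.57 to -0.46). With the median of the probe sets of a gene Prkcd differed by -0.31 (adjusted p = 0.287).

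Of 24 further lectin receptor genes listed, 23 were measured. Beside 0.999% of all probe sets, 3 of the 23 were higher in WT than in IL4R KO. They were Reg3g, a secreted lectin that kills bacteria (1.11, adjusted p = 0.00576), and the selectins Selp (1.10, adjusted p = 0.00514) and Sele (1.09, adjusted p = 0.0305), which catch leukocytes on endothelium. Klrb1b, the dim receptor partner of Clec2d, was the 1 gene that was lower (-0.57, adjusted p = 0.0493), beside 0.577% of all probe sets. All 4 calls were lost without WT pool 1 (1.11, 1.12, 0.94 and -0.48 in that order) or without WT pool 2 (1.10, 1.09, 1.25 and -0.66). The calls of Sele (1.01) and Klrb1b (-0.53) were lost without IL4R KO pool 1 as well, and that of Klrb1b also without IL4R KO pool 2 (-0.62) or either transgenic pool (-0.57). With the median of the probe sets of a gene, Klrb1b differed by -0.09 (adjusted p = 0.707).

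Marker lists of the cells that carry C-type lectins moved in both directions. Of 13 macrophage genes 2 were higher in WT than in IL4R KO and 3 lower, with a median of -0.11. Over all probe sets 0.999% were higher and 0.577% lower in that comparison. Chil3, the chitinase-like protein of alternatively activated macrophages, was higher by 2.33, and Fabp4, a lipid carrier of alveolar macrophages, was lower by -1.52. The mean log2 signal of the 13 was 9.43 and 9.54 in the WT pools, 9.40 and 9.31 in those of IL4R KO, and 9.46 and 9.17 in the transgenic pools. Of 14 dendritic cell genes 4 were higher and 1 lower, led by Ccl17 (2.96), a chemokine that IL-4 is known to induce, and Batf3 (1.78), a transcription factor of dendritic cells. Their mean was 8.47 and 8.54 in the WT pools, 8.08 and 8.24 in those of IL4R KO, and 8.13 and 8.12 in the transgenic pools. These differences of Chil3, Fabp4, Ccl17 and Batf3 between WT and IL4R KO were called under every alternative that tested them. The other 6 calls of these 2 lists were lost when 1 of the WT pools was left out.

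Of 13 measured genes of interstitial and resident macrophages, 0 were called between WT and IL4R KO by limma, near the 1.58% of all probe sets. At an unadjusted p under 0.05 there were 3 of the 13. Folr2, the folate receptor β of resident macrophages, was lower in the transgenic lungs than in WT (-0.53), a call lost when any 1 of the WT or transgenic pools was left out (-0.58 to -0.48). The lists of natural killer, B and T cells and of eosinophils with basophils and mast cells had 0 called genes in every comparison. So did those of platelets, hepatocytes and Y-linked genes. Some held many genes at an unadjusted p under 0.05. Between WT and IL4R KO these were 5 of 7 T cell, 3 of 7 B cell and 3 of 8 platelet genes, beside 7228 of all 45037 probe sets. The median differences were -0.33, -0.55 and -0.32. Between the transgenic lungs and WT 6 of 8 platelet genes were under 0.05 (median 0.47), beside 6910 of all probe sets. The part of any of these cell types in the C-type lectin differences was not tested.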

How the data were processed

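RNA of 6 lung pools was measured on Affymetrix mouse arrays. The deposited values are log2 signals that the authors made with RMA, per the submitters' processing notes, whose version is not given in the sources used here. RMA values of dim probe sets approach a floor, so their ratios are uncertain. No detection calls were used, and the number of arrays limits the precision. Of 45101 probe sets, 64 array controls were left out. All 47 members matched the GRCm38.p6 RefSeq gene table by Entrez identifier with the same symbol, and that table gave gene order alone.

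Group means were fitted with limma 3.58.1 in R 4.3.3 on all probe sets without a filter or intensity trend, with Benjamini-Hochberg adjustment over 45037 probe sets, and tested on simulated data. The 95% intervals use the moderated SE and are not adjusted. The fit had 3 residual and 3.72 prior degrees of freedom. Genes with several probe sets are given by the brightest unless stated, and list genes by their brightest probe set. Named were all called members, the genes of the Clec4, Clec7/12 and Cd209 groups and Mgl2, Clec10a, Mrc1 and Cd207, the 3 brightest others, and up to 4 genes per list with the lowest p between WT and IL4R KO. Syk, Fcer1g, Tyrobp, Folr2, S100a8, Mmp8, Mpo, Clec5a and Clec2d were named after their values were seen. Members and gene lists were chosen with earlier results of these data known. Alternatives were filters on dim probe sets, 1 value per gene, an intensity trend, replicate blocks, leaving out arrays, and covariates for liver and Y-linked signal.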

Additional observations from a re-analysis of the deposited data

How the results depend on the processing

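The number of member probe sets called between WT and IL4R KO was 8, and 4 to 9 when each pool was left out in turn. It was 4 without either WT pool; those called were Cd209e, Clec4a3, Clec4b1 and Mgl2. Between IL4R KO + SMP8-IL4R and IL4R KO it was 0 throughout (0 to 0 with each pool left out). Between IL4R KO + SMP8-IL4R and WT it was 10, and 3 to 11 with each pool left out: 5 without transgenic pool 1, 3 without transgenic pool 2, 4 without either WT pool and 11 without either IL4R KO pool. With probe sets above the median in all 6 arrays it was 6, with fewer members tested, and without both arrays with liver transcripts it was 6, with fewer samples. No called member difference changed sign under any alternative. Clec4d (-2.06) and Clec12b (-0.81) passed between WT and IL4R KO with the Y-linked covariate, which set apart mainly IL4R KO pool 2. Neither passed in that comparison under another alternative. Over all probe sets, calls in both comparisons with WT also fell without a WT or transgenic pool and rose without an IL4R KO pool. The group sizes limit what can be called.

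Replicate numbers did not pair the pools: the correlation over probe sets of the difference between pools was -0.35 for WT and IL4R KO, -0.07 for WT and the transgenic lungs, and 0.05 for IL4R KO and the transgenic lungs. With a replicate block the counts called were 9, 0 and 9 in the order above. The block brought Cd209a past the threshold between WT and IL4R KO (0.60, adjusted p = 0.0282) and lost the calls of Klrb1b there (adjusted p = 0.0770) and, between the transgenic lungs and WT, of the dimmer Clec4a2 probe set (0.0592), Prkcd (0.0683), Folr2 (0.0643) and Vwf (0.0664).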
